A study of Arabidopsis thaliana with 12 samples.

Results

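The 46 genes described here are nuclear genes of Arabidopsis thaliana whose products carry out the light reactions of photosynthesis and carbon fixation. They comprise 20 antenna genes, which encode the light-harvesting proteins of photosystem II (LHCB) and photosystem I (LHCA), and 4 genes for the small subunit of RuBisCO (RBCS). A further 12 genes encode core subunits of photosystem I (PSA) and 10 encode core subunits of photosystem II (PSB). They are 46 of 27444 nuclear protein-coding genes. A peak of a chromatin immunoprecipitation (ChIP-seq) list was given to a member when its summit, the highest point of the peak, lay in or within 2000 bp of that gene and no other protein-coding gene was nearer. By that rule the members held 210 of the 38038 nuclear peaks of 6 lists, namely 30 REV, 27 PHB, 20 PHV, 52 ICU4, 24 ATHB8 and 57 TPL peaks.

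Light-harvesting proteins bind chlorophyll and pass excitation energy to the reaction centres of the photosystems, and RuBisCO fixes carbon dioxide in the chloroplast stroma. The reaction-centre proteins and the large subunit of RuBisCO are encoded in the plastid, while the antenna proteins, the RuBisCO small subunit and many peripheral core subunits are made from nuclear genes and imported. In green seedlings grown in light, LHCB1 and RBCS genes are among the most strongly transcribed nuclear genes.

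The study mapped where 6 proteins bind the genome. REV, PHB, PHV, ICU4 and ATHB8 are transcription factors of class III of the homeodomain leucine-zipper family (HD-ZIPIII), which set the upper side of leaves, the shoot meristem and the vascular pattern, and TPL (TOPLESS) is a co-repressor recruited by DNA-binding proteins. In each of 6 transgenic lines of the Ler ecotype, the locus of 1 of these proteins carried a 2xYPet-3xHA tag at its C-terminus, and chromatin of whole seedlings 10 days old, grown in long days on agar, was precipitated with an antibody against GFP. All 6 groups shared that ecotype, age, growth, tag and antibody, and per the labels differed in the tagged protein. Each had its own input DNA, for which no list was used, and the labels do not say whether an untagged copy of the locus was present too. Duplicates are mentioned for each genotype, but 1 list per protein was used here and pooling is not stated.

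There was therefore 1 sample per group, no replicate error and no test between groups, and shares of genes or peaks are given with Wilson 95% intervals that cover counting error only. The intervals treat peaks as independent, although 1 gene can give several, so those of peak or summit shares are too narrow. Untagged plants gave no list. Read depth is unknown, and the lists ran from 2790 peaks for PHB to 12785 for TPL, so counts in different lists are not on 1 scale. The authors' fold enrichment of a peak, the ratio of its signal to the local background, is read within its own list. The reads came from Ler plants and were placed on the TAIR10 genome. LHCB1.1, LHCB1.2 and LHCB1.3 lie side by side on chromosome 1, as do LHCB1.4 and LHCB1.5 on chromosome 2 and RBCS1B, RBCS2B and RBCS3B on chromosome 5. These and the LHCB2 genes are near-identical copies, so reads could be shared among them and their peaks are uncertain as to the copy.

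All but 1 of the 46 members had a peak in at least 1 list, the exception being LHCA5. A TPL peak was found at 41 members (89.1%, 95% interval 77.0 to 95.3), where 34% of all genes had one. For ICU4 the count was 36 of 46 (78.3%, 64.4 to 87.7) beside 22.3% of all genes. REV peaks were assigned to 19 members (41.3%, 28.3 to 55.7), against 5.86% of all genes, and PHB peaks to 18 (39.1%, 26.4 to 53.5), against 7.29%. PHV and ATHB8 each had peaks at 16 members (34.8%, 22.7 to 49.2), beside 7.06% and 3.52% of all genes. In each full list the lower bound of the interval lay above the share of all genes. That is no test of enrichment, since the members were chosen with earlier results of these data known. Near-identical copies were also counted as separate genes. In the peaks at or above the median fold enrichment of their list, PHV was left at 3 of 46 members (6.52%) against 3.79% of all genes. No test of these differences was run. With every list shortened to 2790 peaks by q-value, TPL was left at 15.2% of members against 8.69% of all genes, REV at 17.4% against 1.97% and ATHB8 at 19.6% against 1.72%. Among 21 strongly transcribed genes outside photosynthesis, such as ubiquitin, actin and translation genes, peaks were counted at 17 for ICU4, 15 for TPL, 8 for REV, 13 for PHB, 10 for PHV and 3 for ATHB8. The part of transcription level in the members' counts was not tested.

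**Figure D1:**
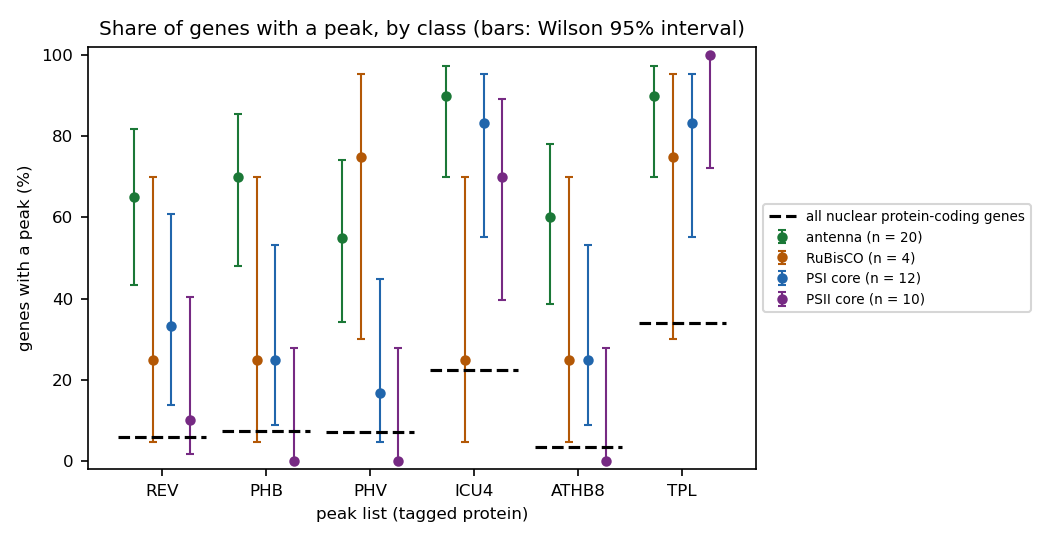
Percent of genes with a peak (y axis) in each of the 6 peak lists (x axis) for the 4 classes of members; points are shares, bars are Wilson 95% intervals and dashed lines give the share of all nuclear protein-coding genes. Antenna genes had the highest share of the 4 classes in the REV, PHB, ICU4 and ATHB8 lists, RuBisCO genes in the PHV list, and all 10 photosystem II core genes had a TPL peak.

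The antenna class had the most peaks of HD-ZIPIII proteins. Of its 20 genes, 18 had ICU4 peaks and 18 TPL peaks, 14 had PHB (70%, 48.1 to 85.5), 13 REV (65%, 43.3 to 81.9), 12 ATHB8 (60%, 38.7 to 78.1) and 11 PHV peaks (55%, 34.2 to 74.2). Of the 22 core genes, 20 had TPL peaks, 17 ICU4, 5 REV (22.7%, 10.1 to 43.4), 3 PHB (13.6%, 4.75 to 33.3), 3 ATHB8 and 2 PHV peaks (9.09%, 2.53 to 27.8). All genes stood at 34% for TPL, 22.3% for ICU4, 5.86% for REV, 7.29% for PHB, 3.52% for ATHB8 and 7.06% for PHV. The core intervals of PHB and PHV held these shares, so those 2 counts do not stand apart from all genes. For REV the antenna and core intervals met only at their edges, whereas for ICU4 and TPL most genes of both classes had a peak. Near-identical LHCB1 and LHCB2 copies weigh in the antenna counts. Without them, 5 of 12 antenna genes had REV (41.7%), 6 PHB (50%), 6 PHV (50%) and 4 ATHB8 peaks (33.3%). That REV share lies within the core interval. Within the antenna, the genes of the major trimeric light-harvesting complex of photosystem II carried most: all 5 LHCB1 and all 3 LHCB2 genes had REV, PHB, ICU4, ATHB8 and TPL peaks, and 5 of the 8 also had a PHV peak. Of the 5 minor LHCB genes (LHCB4, LHCB5 and LHCB6), whose products sit between the trimers and the core, 2 had REV, 2 PHB, 2 PHV, 4 ICU4, 1 ATHB8 and 4 TPL peaks. Of the 6 LHCA genes, REV, PHB, PHV and ATHB8 peaks were each found at 3, and ICU4 and TPL peaks at 5.

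LHCB1 encodes the most abundant antenna protein of photosystem II. At LHCB1.1 (AT1G29920) the strongest peak of each list had a fold enrichment of 5.70 for ICU4, 5.45 for TPL, 6.31 for REV, 3.31 for PHB, 3.00 for PHV and 4.13 for ATHB8. These REV and ATHB8 values were the highest of any member in their lists. The values given for the other genes are likewise fold enrichments of the strongest peak per list. At its tandem neighbours the values were lower in most lists. LHCB1.2 (AT1G29910) had 4.18 for ICU4, 2.23 for TPL, 3.32 for REV, 3.41 for PHB and 3.46 for ATHB8, with no PHV peak. LHCB1.3 (AT1G29930) had 5.72 for ICU4, 3.36 for TPL, 4.37 for REV, 4.31 for PHB, 2.25 for PHV and 2.81 for ATHB8. PHV was thus absent or near the bottom of its list at these copies, with a percentile of 3.90 among genes with a PHV peak for LHCB1.3.

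In the pair on chromosome 2, LHCB1.5 had the higher value in all lists but ATHB8. LHCB1.5 (AT2G34420) had 7.72 for ICU4, 8.41 for TPL, 5.63 for REV, 4.22 for PHB, 3.22 for PHV and 3.50 for ATHB8. LHCB1.4 (AT2G34430) had 4.97 for ICU4, 3.67 for TPL, 3.23 for REV, 2.11 for PHB and 3.61 for ATHB8, and no PHV peak. Peaks at LHCB1.5 took up most of the gene: the REV peak ran from 14522616 to 14523516 and the ICU4 peak from 14522682 to 14523541 on chromosome 2. The gene was covered to 86.2% by REV, 59.8% by PHB, 71.4% by PHV, 82.3% by ICU4, 49.8% by ATHB8 and 97.6% by TPL peaks.

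LHCB2 proteins join LHCB1 in the mobile trimers that move between the photosystems. LHCB2.3 (AT3G27690) had 7.72 for ICU4, 4.15 for TPL, 5.77 for REV, 5.15 for PHB, 3.75 for PHV and 3.61 for ATHB8. Its PHB value was the highest of any member, and its ICU4 value equalled that of LHCB1.5. LHCB2.1 (AT2G05100) had 7.05 for ICU4, 4.68 for TPL, 4.41 for REV, 3.93 for PHB, 2.73 for PHV and 2.77 for ATHB8. LHCB2.2 (AT2G05070) had 4.02 for ICU4, 3.81 for TPL, 6.18 for REV, 4.46 for PHB and 3.02 for ATHB8, again with no PHV peak. LHCB3 (AT5G54270), the third trimer protein, had weaker values and fewer lists, with 2.72 for ICU4, 1.85 for TPL, 3.17 for PHB and 2.33 for PHV and neither a REV nor an ATHB8 peak.

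Among the minor antenna genes LHCB6 (AT1G15820) was the one with a peak in all 6 lists. Its values were 5.53 for ICU4, 3.04 for TPL, 3.18 for REV, 2.79 for PHB, 2.64 for PHV and 2.65 for ATHB8. The ICU4 peak stood in the upper part of its list, at a percentile of 91.2, and the PHV and ATHB8 peaks at 17.0 and 19.5. LHCB4.1 had REV, ICU4 and TPL peaks, LHCB4.2 had PHB, ICU4 and TPL peaks, LHCB4.3 had TPL peaks alone, and LHCB5 had PHV and ICU4 peaks.

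The LHCA proteins form the antenna belt of photosystem I. LHCA2 (AT3G61470) had 3.80 for ICU4, 8.24 for TPL, 3.80 for REV, 3.01 for PHB, 2.99 for PHV and 3.61 for ATHB8. Its strongest TPL peak, from 22744029 to 22746011 on chromosome 3, had its summit 976 bp outside the gene, with BRH1, a RING finger gene, as the next gene 1766 bp away on the other side. The HD-ZIPIII summits of REV, PHB, PHV and ATHB8 all lay inside LHCA2, as did 2 of the 3 ICU4 summits. LHCA4 (AT3G47470) had 5.82 for ICU4, 3.50 for TPL, 3.72 for REV, 3.29 for PHB, 2.80 for PHV and 2.90 for ATHB8. LHCA1 (AT3G54890) had 4.24 for ICU4, 4.70 for TPL, 3.32 for REV and 2.2 for PHV. LHCA3 (AT1G61520) had 4.69 for ICU4, 2.11 for TPL, 3.24 for PHB and 3.6 for ATHB8. The remaining LHCA genes encode minor proteins that link photosystem I to the chloroplast NADH dehydrogenase-like complex. LHCA6 had an ICU4 peak of 3.55 and a TPL peak of 1.78, and LHCA5 had none.

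**Figure D2:**
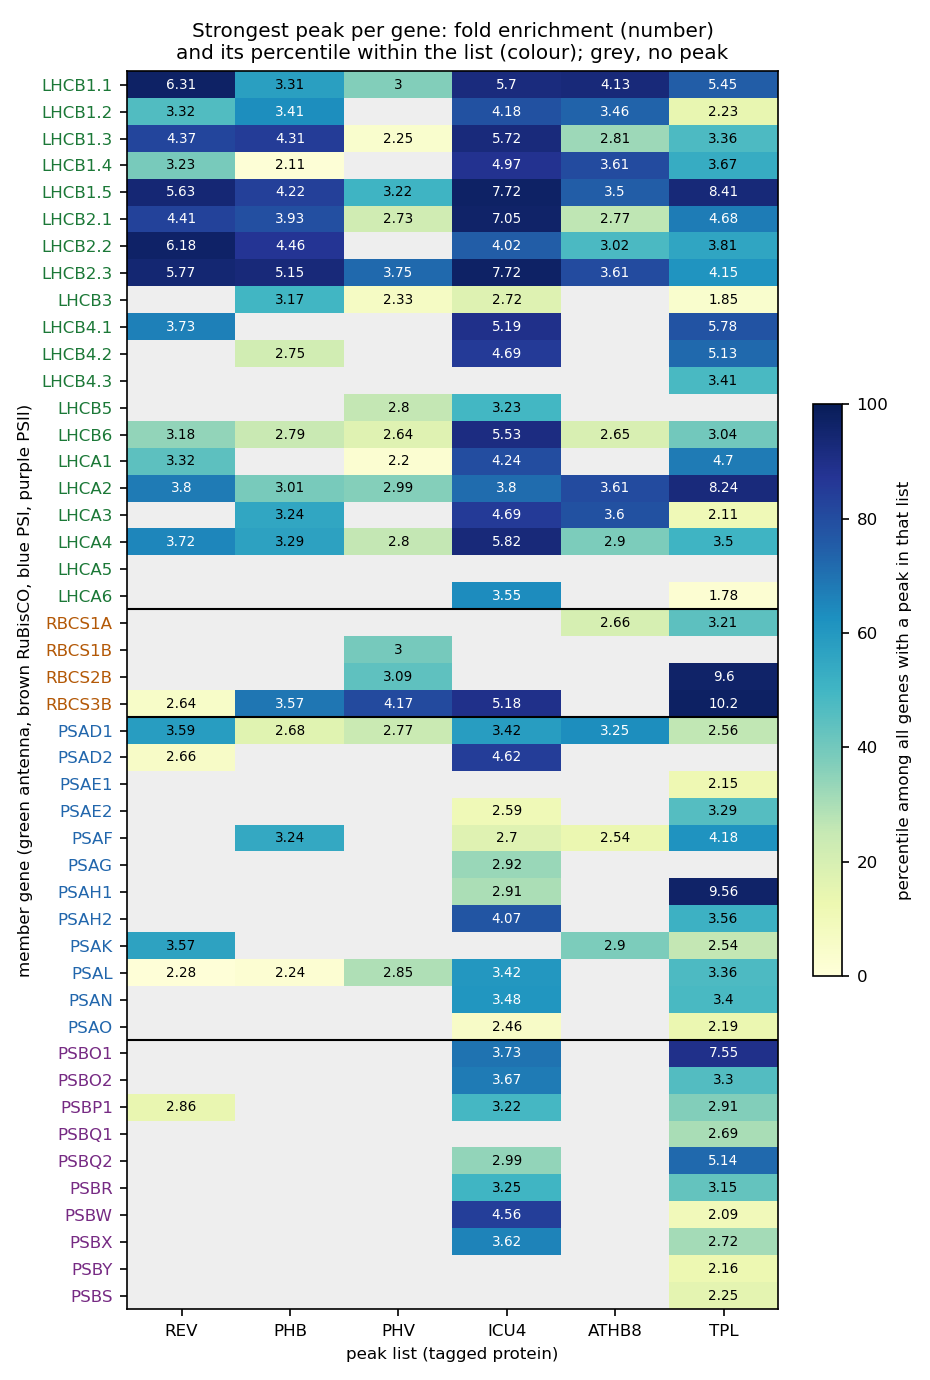
Fold enrichment (number) of the strongest peak of each of the 46 members (rows, ordered by class) in each of the 6 peak lists (columns); the colour gives the percentile of that value among all genes with a peak in the same list, and grey marks no peak. The LHCB1 and LHCB2 rows are filled in all lists but PHV, while the photosystem II core rows hold ICU4 and TPL peaks and a single REV peak, at PSBP1.

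The 4 RuBisCO genes went separate ways. RBCS3B (AT5G38410) had 5.18 for ICU4, 10.2 for TPL, 2.64 for REV, 3.57 for PHB and 4.17 for PHV, with no ATHB8 peak. Its PHV and TPL values were the highest of any member, and its REV value had a percentile of 5.44. The other RBCS genes had a single HD-ZIPIII protein each. RBCS2B had a PHV peak of 3.09 and TPL at 9.60, RBCS1B had a PHV peak of 3.00 alone, and RBCS1A had an ATHB8 peak of 2.66 and TPL at 3.21. ICU4, the list found at most members of the other classes, was met at 1 of 4 RBCS genes (25%, 4.56 to 69.9), beside 22.3% of all genes. With 4 genes this count does not stand apart from all genes, and its interval meets those of the other classes. All summits at RBCS3B lay near the same end of the gene: the REV, ICU4, PHB, PHV and TPL summits fell at 15378442, 15378461, 15378503, 15378510 and 15378545 on chromosome 5. They lay 97 to 200 bp inside that end of the annotated gene.

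Core subunits of photosystem I had ICU4 peaks at 10 of 12 genes and TPL peaks at 10, but REV peaks at 4, PHB at 3, PHV at 2 and ATHB8 at 3. The PHV interval (16.7%, 4.70 to 44.8) held the 7.06% of all genes. PSAD1 (AT4G02770), which encodes a stromal subunit that docks ferredoxin, had 3.42 for ICU4, 2.56 for TPL, 3.59 for REV, 2.68 for PHB, 2.77 for PHV and 3.25 for ATHB8. It was the only core gene in all 6 lists, and its ATHB8 peak and strongest REV peak lay outside the gene, at 1364 and 537 bp. PSAL (AT4G12800), whose product takes part in docking the mobile antenna, had 3.42 for ICU4, 3.36 for TPL, 2.28 for REV, 2.24 for PHB and 2.85 for PHV. Its REV and PHB values were near the floor of their lists, with percentiles of 0.591 and 2.22. PSAF (AT1G31330), which encodes the docking subunit for plastocyanin, had 2.70 for ICU4, 4.18 for TPL, 3.24 for PHB and 2.54 for ATHB8. PSAK had REV, ATHB8 and TPL peaks, PSAD2 had REV and ICU4 peaks, PSAG had an ICU4 peak and PSAE1 a TPL peak. The ICU4 summit at PSAG and the TPL summit at PSAE1 also lay inside an overlapping gene.

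Photosystem II core genes had TPL peaks at all 10 genes, ICU4 peaks at 7 and a REV peak at 1, and none of PHB, PHV or ATHB8. With 5.86% of all genes holding a REV, 7.29% a PHB, 7.06% a PHV and 3.52% an ATHB8 peak, counts of 0 or 1 in 10 genes do not stand apart from the background. A count of 0 of 10 allows a share of up to 27.8% by the Wilson interval. PSBP1 (AT1G06680), which encodes an extrinsic protein of the oxygen-evolving complex, was the member of this class in most lists, with 3.22 for ICU4, 2.91 for TPL and 2.86 for REV. Its REV summit, at 2047990 on chromosome 1, lay 2 bp from an ICU4 summit. The strongest TPL peak of the class was at PSBO1 (7.55), which encodes the protein that stabilises the manganese cluster, and the strongest ICU4 peak at PSBW (4.56). PSBQ1, PSBY and PSBS, the last of which encodes the sensor of energy-dependent quenching, had a TPL peak alone.

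Counted by gene, 40 of the 46 members had a peak of at least 1 HD-ZIPIII protein (87.0%, 74.3 to 93.9), against 26.9% of all genes. At least 4 of the 5 HD-ZIPIII proteins were found at 14 members (30.4%, 19.1 to 44.8), against 2.69% of all genes. All 6 lists met at 9 members (19.6%, 10.7 to 33.2), against 0.758% of all genes. These were LHCB1.1, LHCB1.3, LHCB1.5, LHCB2.1, LHCB2.3, LHCB6, LHCA2, LHCA4 and PSAD1. Of the 14 genes with at least 4 HD-ZIPIII proteins, 11 were antenna genes. The 14 became 6 with lists of equal length and 3 with the peaks at or above the median fold enrichment of each list. The share of all genes with at least 4 proteins under these settings is not given here, and the 2.69% holds for the full lists only. In the list of strongly transcribed genes, 20 of 21 had at least 1 HD-ZIPIII protein, 5 had at least 4 and 2 had all. Without the LHCB1, LHCB2 and RBCS genes, the counts among the remaining 34 members were 27 for ICU4, 30 for TPL, 10 for REV, 9 for PHB, 8 for PHV and 7 for ATHB8.

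Most members with a PHB, REV, PHV or ATHB8 peak had an ICU4 peak as well. All 18 members with a PHB peak also had an ICU4 peak, as did 18 of 19 with REV, 14 of 16 with PHV and 14 of 16 with ATHB8. These counts are to be read beside the ICU4 share of all members, 36 of 46 (78.3%). A set of 12 members had ICU4 and TPL peaks alone, among them PSAH1, PSAH2, PSAN, PSAO, PSBO1, PSBO2, PSBQ2 and PSBR, and 5 had TPL alone. The share of all genes with each of these combinations is not given here, so they are not read as particular to the members. Only RBCS1A, RBCS1B, RBCS2B and PSAK had an HD-ZIPIII peak without ICU4. The 4 members with peaks but without a TPL summit of their own were LHCB5, RBCS1B, PSAD2 and PSAG. TPL peaks whose summit belonged to a neighbour still covered 75.4% of PSAD2, 49.4% of PSAG and 18.4% of LHCB5.

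Where the summits lay was compared next. HD-ZIPIII summits at the members were inside the gene in 144 of 153 cases (94.1%, 89.2 to 96.9), against 67.5% (66.8 to 68.2) of 16993 at genes that are not members. At antenna genes 105 of 107 were inside (98.1%, 93.4 to 99.5), and at core genes 33 of 39 (84.6%, 70.3 to 92.8). The members are short genes, with a median length of 1412 bp against 2078 bp for all genes. By list, the members' summits lay inside for 27 of 30 REV, 27 of 27 PHB, 19 of 20 PHV, 49 of 52 ICU4 and 22 of 24 ATHB8 peaks. For ATHB8 the share at other genes was 46%, the lowest of the 6 lists. The lists entered the pooled shares in unlike proportions, with ATHB8 giving 24 of 153 summits at members and 1408 of 16993 elsewhere. Strongly transcribed genes outside photosynthesis had 50 of 68 inside (73.5%, 62.0 to 82.6). At 10 HD-ZIPII genes, a group with peaks of the same proteins, 13 of 56 were inside (23.2%, 14.1 to 35.8).

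TPL summits lay nearer gene ends than HD-ZIPIII summits did, both at members and at other genes. Of 57, 41 were inside (71.9%, 59.2 to 81.9), against 53.3% at other genes, and 27 were within 200 bp of a gene end (47.4%, 35.0 to 60.1), against 42.2%. Of the HD-ZIPIII summits at members, 19 of 153 were that close to an end (12.4%, 8.10 to 18.6), against 21.5% at other genes. The members' TPL interval for summits within 200 bp of an end thus held the share of other genes. The median distance to the nearest gene end was 212 bp for TPL and 474 bp for HD-ZIPIII summits, and at the antenna genes 110 bp and 496 bp. At other genes these medians were 258 bp for TPL and 454 bp for HD-ZIPIII summits, so the contrast is not particular to the members. At LHCB2.3, for example, the TPL summit lay 33 bp outside the gene and all 9 HD-ZIPIII summits lay inside it. At LHCB1.4 the TPL summit was 75 bp outside, and the REV, PHB, ICU4 and ATHB8 summits were inside. Of the 7 HD-ZIPIII summits at RBCS genes, 5 lay within 200 bp of an end, but all except that of RBCS2B were at the single gene RBCS3B. The summits at RBCS1A and RBCS1B lay 375 and 869 bp from an end, so no trait of the class can be read from them. Which end is the transcription start is not given here, as the gene table used has no strand.

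**Figure D3:**
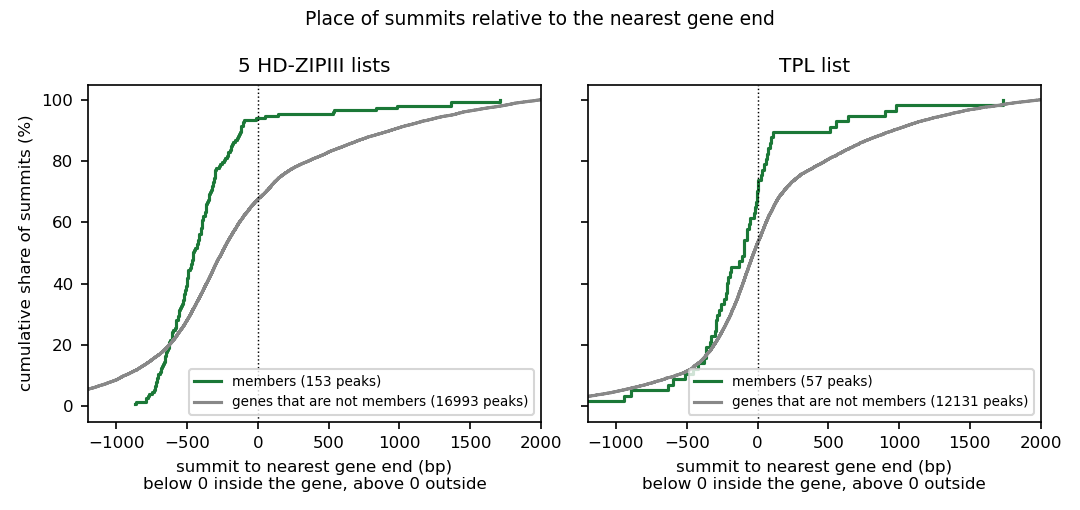
Cumulative share of summits (y axis, percent) by distance to the nearest gene end (x axis, bp; below 0 inside the gene, above 0 outside; summits deeper inside long genes are not drawn) for the 5 HD-ZIPIII lists together (left) and TPL (right), members in green and other genes in grey. At 0 bp the HD-ZIPIII curve of the members has reached 94.1% and that of other genes 67.5%, and the TPL curves 71.9% and 53.3%.

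Besides those at LHCA2, where an ICU4 summit lay 985 bp outside near the TPL summit, the HD-ZIPIII summits outside members had these neighbours. At PSAH1 the ICU4 summit and the stronger of 2 TPL summits lay 837 and 903 bp outside, the TPL peak with a fold enrichment of 9.56, while the weaker TPL summit (2.54) lay inside the gene. ASPGB1, an asparaginase gene, was the next gene 1238 bp from the outer TPL summit. At PSAK, REV and ATHB8 summits lay 528 and 1708 bp outside, with the transporter gene ABCC1 beyond them. At PSAD1, 2 REV summits and an ATHB8 summit lay outside with GA1, a gibberellin synthesis gene, as the next gene, 6144 bp from the nearer REV summit. The second REV and the ATHB8 summit there, at 1231527 and 1231528 on chromosome 4, were 1 bp apart. The PHV and the stronger TPL summit at RBCS2B lay 139 and 91 bp outside, between that gene and RBCS1B. At LHCB4.1 an ICU4 summit lay 52 bp outside, on the side of the receptor kinase gene LECRKA4.1.

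**Figure D4:**
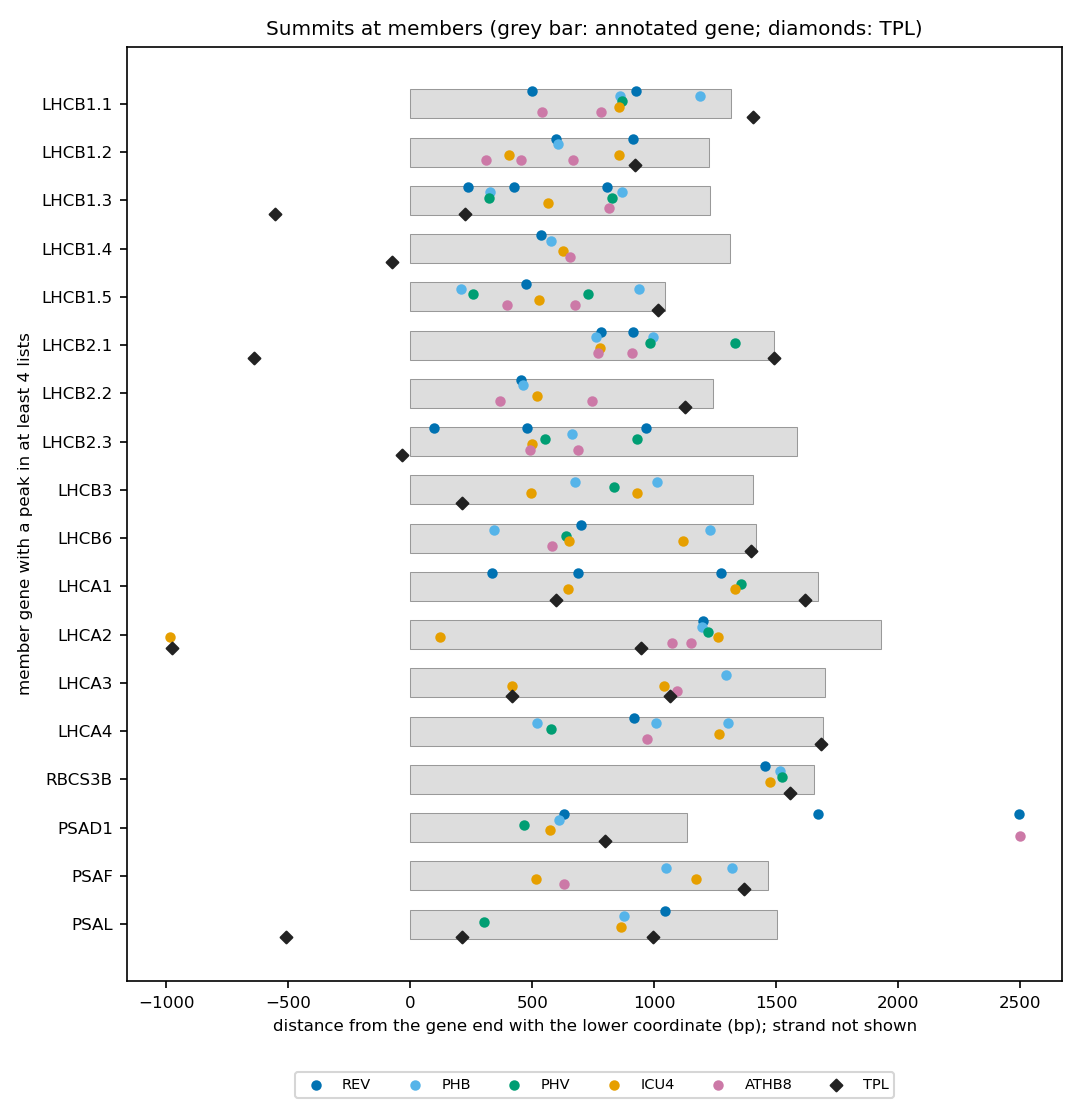
Position of every summit at the 18 members with a peak in at least 4 lists (rows); the x axis is the distance in bp from the gene end with the lower coordinate, grey bars are the annotated genes, circles are HD-ZIPIII summits and diamonds TPL summits. HD-ZIPIII summits are scattered through the middle of the LHCB and LHCA genes, and TPL summits often lie near or past an end, as at LHCB1.1, LHCB1.4 and LHCB2.3.

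Some members had several peaks of 1 protein. Among members with a peak, 7 of 19 had more than 1 REV peak, 8 of 18 PHB, 4 of 16 PHV, 14 of 36 ICU4, 7 of 16 ATHB8 and 14 of 41 TPL. The shares at other genes were 28.4%, 19.3%, 16.2%, 25.9%, 27.8% and 24.3%. Only for PHB did the Wilson interval of the members (44.4%, 24.6 to 66.3) lie above the share at other genes. In every other list it held that share, so those counts do not set the members apart. LHCB1.3 and LHCB2.1 had the most, with 11 peaks each over the 6 lists. ICU4 peaks covered a median of 46.1% of the length of the members that had one, against 9.15% of other genes with an ICU4 peak. For TPL these medians were 65.5% and 16.1%, for PHB 25.5% and 6.76%, for REV 13.0% and 4.04%, for PHV 12.9% and 5.85% and for ATHB8 15.7% and 1.01%. Gene length enters these shares: the median lengths behind the ICU4 values were 1386 bp for members and 2272 bp for other genes. Part of a peak can also lie outside its gene.

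The summits of different HD-ZIPIII proteins lay apart in most members with several of them. For each gene with 4 or 5 HD-ZIPIII proteins, the shortest stretch that held a summit of each was measured. Its median was 209 bp at the 14 members (order-statistic 95% interval 122 to 687) and 109 bp at 724 other genes (98 to 123). The stretch was at most 100 bp at 1 of the 14 members, RBCS3B with 68 bp, and at 342 of the 724 other genes (47.2%, 43.6 to 50.9). Among genes with all 5 proteins the medians were 302 bp at 9 members and 133 bp at 216 other genes. The shortest of these members was LHCA2 with 110 bp and the longest PSAD1 with 2030 bp. At 6 HD-ZIPII genes with 4 or 5 proteins the stretch was 16 to 81 bp. At 5 strongly transcribed genes outside photosynthesis the median was 291 bp.

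**Figure D5:**
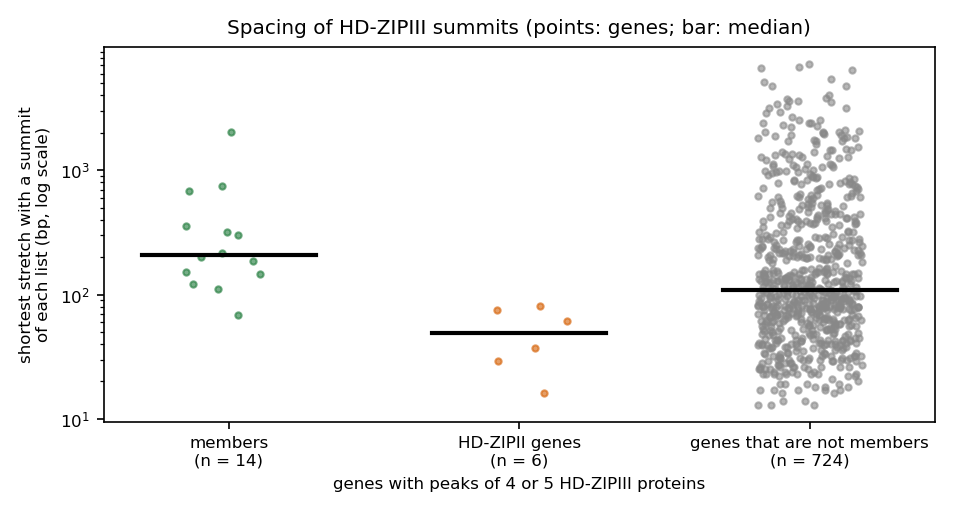
Shortest stretch of DNA (y axis, bp, log scale) that holds a summit of each HD-ZIPIII protein with a peak, for genes with 4 or 5 such proteins: 14 members, 6 HD-ZIPII genes and the 724 genes that are not members, which include the HD-ZIPII genes. Points are genes, spread sideways for legibility, and bars are medians, at 209, 49 and 109 bp.

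The strength of the members' peaks was middling in most lists and varied by class. By fold enrichment of the strongest peak per gene, the median percentile of the members among all genes with a peak was 73.2 for ICU4, 58.2 for REV, 56.2 for PHB, 55.5 for ATHB8, 47.5 for TPL and 27.4 for PHV. In the ICU4 list the median was 3.91 (3.42 to 4.69) for 36 members and 3.24 for all 6125 genes with a peak. Antenna genes had a median of 4.83 and a median percentile of 86.7 there, beside 3.17 for photosystem I and 3.62 for photosystem II core genes. The single RuBisCO gene with an ICU4 peak, RBCS3B, stood at 5.18 and a percentile of 89.1. In the PHV list the members' median was 2.82 (2.64 to 3.09) and that of all genes with a peak 3.21, and no member was in the top 10% of genes. Members in the top 10% numbered 7 of 36 for ICU4, 5 of 41 for TPL, 4 of 19 for REV, 1 of 18 for PHB and 1 of 16 for ATHB8. By definition 10% of all genes with a peak fall there, so the TPL, PHB and ATHB8 counts are near or below that share. The 7 for ICU4 and the 4 for REV were all antenna genes. The HD-ZIPII genes had median percentiles of 97.6 for ICU4, 87.1 for TPL, 81.5 for REV, 96.4 for PHB, 96.7 for PHV and 73.5 for ATHB8. At HAT1, the HD-ZIPII gene with the highest REV and ICU4 values of that group, fold enrichment was 12.2 for ICU4, 7.95 for REV and 12.9 for PHV.

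TPL peaks and HD-ZIPIII peaks overlapped at most members. A TPL peak overlapped 128 of the 153 HD-ZIPIII peaks of members (83.7%, 77.0 to 88.7), against 70.0% (69.3 to 70.7) at other genes. For ATHB8 the overlap was 17 of 24 (70.8%, 50.8 to 85.1) against 30.5%, and for PHB 24 of 27 (88.9%, 71.9 to 96.1) against 81.5%. TPL peaks are wide, with a median of 653 bp at members, and an overlap of any base says little of the summits. When summits had to lie within 100 bp, TPL matched 5 of 30 REV, 4 of 27 PHB, 4 of 20 PHV, 12 of 52 ICU4 and 2 of 24 ATHB8 peaks of members. The same match by peak is not given for other genes. By gene, the strongest TPL summit lay within 100 bp of an HD-ZIPIII summit at 15 of 36 members (41.7%, 27.1 to 57.8). At other genes that share was 58.5% (57.1 to 59.8). From the strongest TPL summit to the nearest HD-ZIPIII summit the median distance was 165 bp at 36 members (79 to 262) and 60 bp at 4938 other genes (56 to 66). At 8 HD-ZIPII genes it was 12.5 bp. Among members, LHCA6 had its TPL and ICU4 summits 1 bp apart, LHCB1.2 had a TPL summit 9 bp from an HD-ZIPIII summit, and at LHCB2.1 the distance was 1401 bp.

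In lists of other photosynthesis genes, each HD-ZIPIII protein had peaks at a lower share of genes than in the antenna. The shares of all genes, beside which the counts in these short lists are to be read, were 34% for TPL, 22.3% for ICU4, 7.06% for PHV, 5.86% for REV, 7.29% for PHB and 3.52% for ATHB8. Of 17 Calvin cycle genes, 11 had TPL, 7 ICU4, 3 PHV, 1 REV, 1 PHB and 0 ATHB8 peaks, so that REV and PHB (5.88% each) were near the background. The leading gene was CP12-2, a regulator of Calvin cycle enzymes, with 3.80 for ICU4, 3.80 for TPL, 3.39 for REV and 2.86 for PHV. It was followed by AT3G60750 and by PRK, the phosphoribulokinase gene, which had ICU4 (3.29) and TPL (3.47) peaks. Of 14 electron transport and ATP synthase genes, 4 had REV, 1 PHB, 2 PHV, 9 ICU4, 0 ATHB8 and 12 TPL peaks. The plastocyanin genes PETE1 and DRT112 had 3.29 and 2.50 for ICU4 and 7.62 and 4.21 for TPL, and ATPC1, an ATP synthase gene, had 3.42 and 3.04.

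Of 18 chlorophyll synthesis genes, 2 had REV, 2 PHB, 2 PHV, 9 ICU4, 0 ATHB8 and 13 TPL peaks. HEMA1, which encodes glutamyl-tRNA reductase at the head of the pathway, had peaks in all lists but ATHB8, with 4.94 for ICU4. CRD1 and PORB each had ICU4 and TPL peaks with 1 further protein. Of 7 light-harvesting-like genes, 0 had REV, 2 PHB, 2 PHV, 3 ICU4, 0 ATHB8 and 6 TPL peaks, led by the early light-induced genes ELIP2 and ELIP1 and by OHP2. Of 6 regulators of photosynthesis genes, 1 had REV, 1 PHB, 0 PHV, 2 ICU4, 2 ATHB8 and 5 TPL peaks. These included HY5, a transcription factor of light responses, with a TPL value of 9.65, GLK2 with 4.50 and its relative GPRI1 with 6.74. Of 5 other photosystem genes, 0 had REV, 2 PHB, 0 PHV, 2 ICU4, 0 ATHB8 and 3 TPL peaks, at PSB27, PSBTN and PSI-P. UBQ11, UBQ10 and ACT7, the leading strongly transcribed genes, had ICU4 values of 11.9, 9.50 and 9.62, each above the highest member value of 7.72.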

How the data were processed

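Alignment was done with Bowtie2 and peak calling with MACS2 on TAIR10, per the submitters' processing notes, without versions or settings. The deposited lists give for each peak a pileup, a coverage signal whose scale is not stated. The deposited p-value and q-value columns are −log10 values, per the file headers. Fold enrichment, as the authors deposited it, is a ratio to the local background on a linear scale, with the matching input as the control, per the labels' design text. Depth is unknown.

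Peaks of the 5 nuclear chromosomes were analysed in Python 3.11.15 with pandas 2.3.3. Summits were given to the nearest protein-coding gene within 2000 bp, at distance 0 when inside, and summits tied between genes counted for each. Genes came from the RefSeq table of assembly TAIR10.1, used for names and for which gene a peak lies in or beside. All 46 members were matched to it. Shares of all genes used the same rule over 27444 genes. Wilson intervals and order-statistic intervals of medians are at 95%. The assignment was tested on simulated peaks. With 1 sample per group no test was run.

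The members and all gene lists were chosen with earlier results of these data known, and the 10 HD-ZIPII genes were added as a comparison after the lists had been seen. Values in every list were given for members with a peak in at least 4 of 6 lists, for the leading member of a class without one, and for up to 3 genes of each other list by number of lists and ICU4 fold enrichment. Alternatives were other distances, peak selections, gene rules and overlap rules. The distance from the transcription start and the search for promoter motifs were not run, because no strand and no sequence were used here.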

Additional observations from a re-analysis of the deposited data

Results flagged for a closer look

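Apart from the nuclear genes, the ICU4 list held 75 peaks on the plastid chromosome, where the other 5 lists held 0. That chromosome encodes the photosynthesis proteins that the nucleus does not, and it lies outside the nucleus. These peaks had a median fold enrichment of 1.43, from 1.25 to 1.66, below the nuclear median of 3.17 in the same list, and a median pileup of 246 against 25. Of their summits, 55 lay in a protein-coding plastid gene. No control list without a tag was available for comparison, and the source of this signal was not tested.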

How the results depend on the processing

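No paired analysis was possible because each group had 1 sample. Of 163 values recomputed under an alternative, 136 stayed and 27 moved. Counts of genes and their shares had to stay within 1.5 times, and shares of peaks and medians of fold enrichment within their intervals. Medians by −log10 q had only to stay on the same side of the median of all genes with a peak, and percentiles on the same side of 50. No count moved by over 1.5 times under the distances of 1000 and 500 bp, summits inside the gene only, every gene within 2000 bp, whole-peak overlap and the removal of summits in 2 overlapping genes, the last of these being chosen after seeing the data. The stronger part of each list (fold enrichment at or above its median) left REV peaks at 19.6%, PHV at 6.52%, ATHB8 at 17.4% and TPL at 52.2% of members, and at 10% (PHV) and 35% (ATHB8) of antenna genes, where all genes stood at 2.16%, 3.79%, 1.48% and 18.9%. It left 3 members with at least 4 HD-ZIPIII proteins, put 100% of the REV and PHV and 56% of the TPL summits inside, and gave a TPL overlap of 100% for PHV (3 peaks) and 50% for ICU4. Lists of equal length (2790 peaks) gave 17.4% for REV, 19.6% for ATHB8 and 15.2% for TPL among members, 40% (REV) and 15% (TPL) among antenna genes, and 6 members with at least 4 proteins. All genes then stood at 1.97% for REV, 1.72% for ATHB8 and 8.69% for TPL. For at least 4 proteins the share of all genes is not given under either setting. Without LHCB1, LHCB2 and RBCS, ATHB8 was at 20.6% of members and 33.3% of antenna genes, and REV at 41.7% of antenna genes. TPL summits within 100 bp met 16.7% of REV, 14.8% of PHB, 20% of PHV, 23.1% of ICU4 and 8.33% of ATHB8 peaks of members, with no such share given for other genes. By −log10 q the TPL median of members, 29.1, changed sides of the median of all genes with a TPL peak. The causes were not tested, beyond fewer peaks in the shortened lists. The distance from the transcription start was not run. With unknown depth, the absence of a peak does not show the absence of binding.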
